A study of Mus musculus with 4 samples.

Results

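Fatty acid and triglyceride synthesis in the liver was followed through 9 genes: the transcription factors Srebf1 and Pparg, the supply enzymes Acly and Me1, the fatty acid enzymes Acaca, Fasn, Elovl6 and Scd1, and the glycerolipid enzyme Gpam. Members were taken by name, from probes annotated to one of these genes alone. All 9 were found, with 1 probe each, among the 9285 genes and 15478 probes of the array. The measured livers came from male mice of B6/FVB background, 7 to 8 weeks old and fed enough selenium, and each mutant liver was compared with a wild-type (Trsp) littermate's on a 2-colour array.

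Trsp is the gene for selenocysteine tRNA, which carries selenocysteine into all selenoproteins. The DTrsp line lacks Trsp in the liver. A34 mice carry 2 copies of a mutant Trsp transgene in which T34 is changed to A34. G37L mice carry 2 copies, and G37H mice 16 copies, of a transgene in which A37 is changed to G37. Positions 34 and 37 lie in the anticodon loop of the tRNA. The labels used here do not name the Cre or promoter behind the liver knockout, and are silent on whether livers with a transgene still have their own Trsp. Each line is represented by 1 value per probe, averaged by the authors over 4 animals, or 3 in G37H. No spread between animals can be given, so no difference below is tested and every value is a description.

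The liver makes fatty acids from citrate. ATP citrate lyase (Acly) cleaves citrate to acetyl-CoA, acetyl-CoA carboxylase (Acaca) turns that into malonyl-CoA, and fatty acid synthase (Fasn) builds palmitate from it with NADPH, part of which comes from malic enzyme (Me1). Elovl6 lengthens palmitate to stearate, stearoyl-CoA desaturase (Scd1) makes oleate, and the mitochondrial glycerol-3-phosphate acyltransferase (Gpam) starts the building of triglyceride. SREBP-1, encoded by Srebf1, is the insulin-responsive transcription factor that drives most of these genes in liver. Pparg encodes a nuclear receptor that directs lipid storage, mainly in fat tissue and, at lower levels, in fatty liver.

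The values are read as log2 of mutant over wild type, because the labels give wild-type liver Cy3 and mutant liver Cy5. This direction is likely but not stated, and if the ratio ran the other way every sign would be opposite, ranks from the lowest would be ranks from the highest, and each percentage of wild type would be that of mutant. No pair of columns correlated below 0 over all probes (Pearson r between 0.03 and 0.47). A log2 ratio of at least 1 on either side of 0 is called 2-fold here. For genes with 2 probes on the array, the probes of one gene differed by a median of 0.43 in DTrsp and 0.29 in A34, with 0.31 in G37L and 0.30 in G37H on the log2 scale, which is the only measure of technical spread these values offer. Column medians over all genes were 0.16 in DTrsp and 0.07 in A34, with -0.11 in G37L and -0.11 in G37H. Markers of hepatocytes (12 of 14 listed genes measured) lay higher, with medians of 0.58, 0.38, 0.53 and 0.54 in the same order of lines, so the sign of a small value depends on where 0 is set. Ratios without intensities cannot show whether a marker is present, so the labelled tissue was not checked, and Trsp itself was not analysed here. Of the 36 values of the 9 genes, 11 have no fraction of the 4-decimal step, so the number of arrays behind them cannot be read. A further 6 can be averages over either 2 or 4 arrays, among them the DTrsp values of Srebf1, Acly, Fasn and Pparg.

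The promoters of 4 members that were at least 2-fold apart from wild type in some line are shown first, because SREBP-1 is known to act on such promoters together with the CCAAT-binding factor NF-Y and the GC-box factor Sp1. Each is the stretch of 250 bases before an annotated transcript start, from RefSeq on build GRCm38.p6. Capitals mark the CCAAT box (CCAAT) and the GC box (GGGCGG), on either strand. The windows are chr11:120824548-120824797 for Fasn, chr11:60210472-60210721 for the third of 3 annotated Srebf1 starts, chr11:100528001-100528250 for Acly and chr9:86695915-86696164 for the first of 2 Me1 starts, all read from the minus strand.
Fasn: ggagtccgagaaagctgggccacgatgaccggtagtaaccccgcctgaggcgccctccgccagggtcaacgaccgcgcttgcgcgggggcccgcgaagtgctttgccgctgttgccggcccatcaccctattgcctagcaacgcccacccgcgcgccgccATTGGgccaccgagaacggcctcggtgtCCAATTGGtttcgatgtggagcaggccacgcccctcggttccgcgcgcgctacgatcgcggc
Srebf1: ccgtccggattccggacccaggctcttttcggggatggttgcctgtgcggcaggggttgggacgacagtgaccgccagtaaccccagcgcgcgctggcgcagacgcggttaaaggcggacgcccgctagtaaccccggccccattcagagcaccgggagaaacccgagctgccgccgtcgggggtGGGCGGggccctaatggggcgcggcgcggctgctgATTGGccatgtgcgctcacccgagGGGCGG
Acly: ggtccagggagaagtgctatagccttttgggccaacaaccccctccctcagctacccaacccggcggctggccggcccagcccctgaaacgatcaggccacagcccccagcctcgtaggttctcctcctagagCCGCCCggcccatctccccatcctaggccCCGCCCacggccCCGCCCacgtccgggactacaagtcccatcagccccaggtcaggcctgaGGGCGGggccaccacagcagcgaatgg
Me1: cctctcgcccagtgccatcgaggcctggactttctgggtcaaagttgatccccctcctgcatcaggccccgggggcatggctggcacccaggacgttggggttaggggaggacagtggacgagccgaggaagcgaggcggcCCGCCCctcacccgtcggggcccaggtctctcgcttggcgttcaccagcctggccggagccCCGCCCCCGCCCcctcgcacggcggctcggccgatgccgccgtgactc

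The Fasn window held 3 CCAAT boxes, at -90, -62 and -59. Those at -62 and -59 overlap on opposite strands, and an E-box (CANNTG) lies within the pair. The Srebf1 window held 1 CCAAT box at -30 and 2 GC boxes, at -65 and -6. The Acly window had 4 GC boxes and the printed Me1 window 3, and neither had a CCAAT box. Of the windows not printed, that of the second Me1 start held a CCAAT box at -208. The Elovl6 window held none of the motifs searched. Of 32851 promoter windows of the same length in the RefSeq table, 33.8% held a CCAAT box and 32.7% a GC box, so neither match is rare. GC content ran between 39.2% and 82.4% over the members' windows, which bears on how often a GC box occurs.

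Promoter windows were matched for 8 of the 9 members (not Scd1), 14 windows in all. None held the sterol regulatory element as searched (TCACNCCAC, in 1.05% of all windows), the palindromic E-box (CACGTG, 6.02%), or the direct repeats read by LXR (0.0152%) and PPAR receptors (0.0335%). The antioxidant response element (TGACNNNGC, 10.2% of all windows) was matched once, upstream of the second Pparg start. The general E-box (CANNTG, 66.2%), which also takes in the palindromic form, was matched in Fasn, Acaca, Srebf1, Me1 and Pparg windows. Only the letters given were searched, so sites with other letters would be missed within these windows, the printed ones included. Letters absent from these windows also say nothing about sites elsewhere in the genes.

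**Figure D1:**
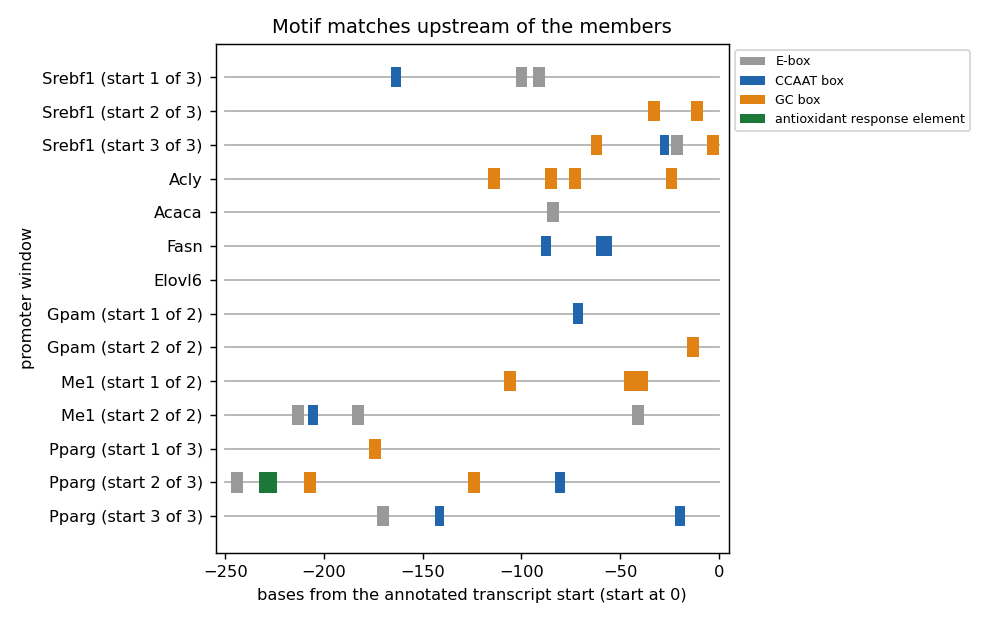
Motif matches in the 250 bases upstream of each annotated transcript start of the members, by distance from the start in bases. Grey lines are the windows and blocks the matches (E-box grey, CCAAT box blue, GC box orange, antioxidant response element green), with 3 CCAAT boxes for Fasn, 4 GC boxes for Acly and none for Elovl6.

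Across the 4 lines the 9 genes did not move as one. Their median log2 ratio was 0.29 in DTrsp and -0.84 in A34, with -0.57 in G37L and -0.63 in G37H. In DTrsp 7 of the 9 lay above 0, while 7 of 9 lay below 0 in A34, 7 in G37L and 8 in G37H. That DTrsp count depends on the zero point, since 5 of the 9 lay above 0 after centring on all genes and 1 relative to the hepatocyte markers. Acly, Acaca, Fasn and Me1 combined a value above 0 in DTrsp with values below 0 in the 3 transgenic lines, as did 12.6% of all genes, though relative to the hepatocyte markers only Me1 of these kept a positive DTrsp value. Over all genes the shares below 0 were 36.0% in DTrsp and 40.9% in A34, with 60.6% in G37L and 61.6% in G37H.

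At least 2-fold higher values were seen for 1 member in DTrsp (Me1) and 1 in A34 (Gpam), and for 0 in G37L and 0 in G37H. The share of all genes that high was 3.27% in DTrsp and 1.40% in A34, with 2.51% in G37L and 2.78% in G37H. At least 2-fold lower values were seen for 0 members in DTrsp, 2 in A34 (Elovl6 and Fasn), 2 in G37L (Srebf1 and Gpam) and 3 in G37H (Srebf1, Pparg and Acly). The share of all genes that low was 1.62% in DTrsp and 0.452% in A34, with 3.96% in G37L and 3.10% in G37H. In 1 or more lines, 7 of the 9 were at least 2-fold apart from wild type (all but Acaca and Scd1), against 15.6% of all genes. The members had been chosen with earlier results of these data known, so these counts are not independent evidence.

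**Figure D2:**
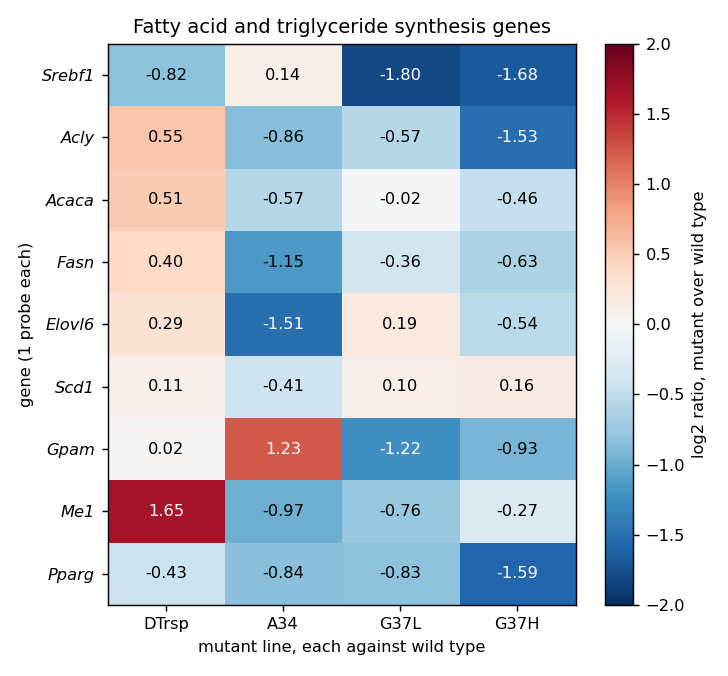
Log2 ratio of mutant over wild type for each of the 9 genes (rows) in each of the 4 lines (columns), with the value printed in each cell. Red is higher in the mutant and blue lower. Srebf1 is darkest blue in G37L (-1.80) and G37H (-1.68), Elovl6 in A34 (-1.51), and Me1 is darkest red in DTrsp (1.65).

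The transcription factor Srebf1 had log2 ratios of -0.82 in DTrsp and 0.14 in A34, with -1.80 in G37L and -1.68 in G37H. It was low in both G37 lines, at 28.8% and 31.3% of wild type, and close to wild type in A34, where it was -0.25 relative to the hepatocyte markers. In G37L it was the 26th lowest of 9285 genes, and in G37H the 24th lowest. At least 2-fold lower values in both G37 lines were shared by 54 genes (0.582%), and Srebf1 was the one member among them. G37L and G37H carry the same tRNA change, and the labels do not say whether their wild-type animals were shared.

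Pparg was the one member below 0 in every line, a pattern held by 9.89% of all genes. That holds as deposited and after centring on all genes, whereas relative to the hepatocyte markers 7 of the 9 members and 62.3% of all genes lay below 0 in every line. Its log2 ratios were -0.43 in DTrsp and -0.84 in A34, with -0.83 in G37L and -1.59 in G37H. The value in A34, though short of 2-fold, was undercut by 0.905% of genes, and the value in G37H by 0.377%. The decimals of the G37H value show an average over 2 arrays, not 3, so that value rests on fewer animals. Fewer cells that express a gene and less RNA per cell cannot be told apart in whole liver.

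Acly, which makes the acetyl-CoA for both fatty acids and cholesterol, stood at 0.55 in DTrsp and -0.86 in A34, with -0.57 in G37L and -1.53 in G37H. It was at 34.7% of wild type in G37H, the 46th lowest gene there, and at 55.2% in A34. Relative to the hepatocyte markers its DTrsp value became -0.02, so a higher level in DTrsp holds only on the scale as deposited and after centring on all genes.

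Me1, a source of NADPH, was high in the knockout and low in A34. Its log2 ratios were 1.65 in DTrsp and -0.97 in A34, with -0.76 in G37L and -0.27 in G37H. In DTrsp it was 3.13-fold higher than in wild type and the 53rd highest of all genes, and it remained more than 2-fold higher relative to hepatocyte markers (log2 1.07). In A34 it was the 47th lowest gene. Besides its place in lipid synthesis, Me1 is known as a target of the oxidative stress factor NRF2. The DTrsp and A34 values were both averages over 4 arrays by their decimals.

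Acaca, the enzyme that commits acetyl-CoA to fatty acid synthesis, lay at 0.51 in DTrsp and -0.57 in A34, with -0.02 in G37L and -0.46 in G37H. None of these reached 2-fold. Fasn followed at 0.40 in DTrsp and -1.15 in A34, with -0.36 in G37L and -0.63 in G37H. In A34 Fasn was at 45.0% of wild type and the 24th lowest gene, whereas in G37L and G37H, where Srebf1 was lowest, Fasn stood at 77.8% and 64.7% of wild type. Both enzymes lay below 0 in DTrsp relative to the hepatocyte markers (Acaca -0.07, Fasn -0.17), and centring on all genes turned the G37L value of Acaca to 0.09.

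Elovl6 had the lowest A34 value among the members. Its log2 ratios were 0.29 in DTrsp and -1.51 in A34, with 0.19 in G37L and -0.54 in G37H. At 35.1% of wild type it was the 7th lowest of 9285 genes in A34. On the scale as deposited the desaturase Scd1 varied least between lines of all members, at 0.11 in DTrsp and -0.41 in A34, with 0.10 in G37L and 0.16 in G37H. Another member lay nearer to 0 in each line but G37H, and in A34 only 6.14% of genes lay lower than Scd1. Its 4 values spanned 0.57 on the log2 scale, against 1.80 for the median member and 0.77 for the median gene of the array. Relative to the hepatocyte markers Scd1 lay below 0 in all 4 lines.

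Gpam, the acyltransferase that opens triglyceride synthesis, went opposite ways in the lines. Its log2 ratios were 0.02 in DTrsp and 1.23 in A34, with -1.22 in G37L and -0.93 in G37H. In A34 it was 2.35-fold higher and the 58th highest gene. In G37L it was at 42.8% of wild type. A gene at least 2-fold higher in one line and at least 2-fold lower in another was found in 0.808% of all genes, and Gpam was the only member of that kind. The decimals of its A34 value show an average over 3 of the 4 arrays. Relative to the hepatocyte markers the A34 value was 0.85, short of 2-fold.

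**Figure D3:**
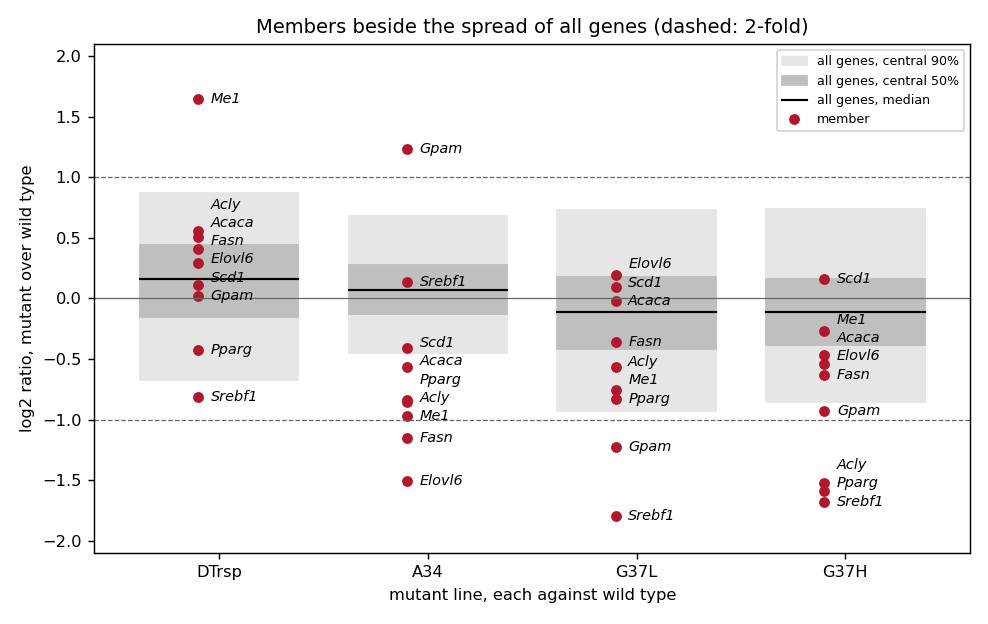
Each red point is the log2 ratio of one of the 9 genes in one line, beside the spread of all 9285 genes (grey bands for the central 50% and 90%, black bar for the median). Names next to crowded points are shifted upward in order. Me1 stands above the band in DTrsp, Gpam above it in A34, and Srebf1 and Gpam below it in both G37 lines.

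Differences between lines were taken by subtracting the log2 ratios gene by gene. A34 against G37L compares both mutations at 2 transgene copies each. Srebf1 was higher in A34 than in G37L by 1.93, with 0.14 in A34 and -1.80 in G37L. Gpam was higher in A34 by 2.45, with 1.23 and -1.22, a 5.48-fold difference. Elovl6 was lower in A34, a difference of -1.70, with -1.51 in A34 and 0.19 in G37L. So the enzyme Elovl6 was lower in the line in which Srebf1 was the higher of the 2. At least 2-fold apart in either direction were 3 of the 9 members, against 9.62% of all genes. Pparg, at -0.84 and -0.83, and Me1, at -0.97 and -0.76, lay close together in these lines.

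G37H against G37L sets 16 copies of the same transgene against 2. Of the 9 members, 0 differed by 2-fold, against 6.74% of all genes. The largest difference was that of Acly, -0.96, with -1.53 in G37H and -0.57 in G37L. Pparg differed by -0.76 and Elovl6 by -0.73, both lower in G37H. Srebf1 differed by 0.12.

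Each transgenic line was also set against the knockout. For Me1 the transgenic line minus DTrsp was -2.62 in A34, -2.40 in G37L and -1.91 in G37H, and for Acly -1.41, -1.12 and -2.08 in the same order. As subtracted, these were the 2 members more than 2-fold lower than in DTrsp in each transgenic line. The share of all genes with that pattern is not given here. In A34, 5 members were at least 2-fold lower than in DTrsp (Acly, Acaca, Fasn, Elovl6 and Me1) and 1 was higher (Gpam), against 4.09% and 4.48% of all genes. In G37L, 3 were lower (Acly, Gpam and Me1), against 10.1%, and in G37H 4 were lower (Acly, Fasn, Me1 and Pparg), against 8.93%. These differences share the DTrsp values. They also keep the offset between columns, as the median difference over all genes was -0.11 in A34, -0.28 in G37L and -0.29 in G37H. Without that offset Acaca in A34, Acly and Gpam in G37L, and Fasn and Pparg in G37H would fall short of 2-fold. Me1 would then be the only member at least 2-fold lower in each line.

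Over 74 other measured genes of lipid synthesis and its regulation, the medians lay near those of all genes in the transgenic lines. They were 0.28 in DTrsp and 0.09 in A34, with -0.07 in G37L and -0.07 in G37H. In DTrsp 7 of these were at least 2-fold higher and 0 lower, and in A34 2 were higher and 1 lower. In G37L 1 was higher and 5 lower, and in G37H 1 was higher and 3 lower.

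Among 25 measured regulators of lipid synthesis, Insig2 had the highest value in both G37 lines. Insig2 encodes a membrane protein that holds SREBP precursors in the endoplasmic reticulum. Its log2 ratio was 0.84 in DTrsp and -0.26 in A34, with 1.94 in G37L and 1.59 in G37H, as the mean of 4 probes. All 4 probes had the same sign in each line, between 1.54 and 2.66 in G37L and between 1.19 and 2.23 in G37H. Insig2 was thus high in the 2 lines in which Srebf1 was lowest. Mid1ip1, whose product aids acetyl-CoA carboxylase, was at 0.19 in DTrsp and -0.20 in A34, with -1.21 in G37L and -1.35 in G37H.

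In A34 the highest regulators were Prkaa2, a catalytic subunit of AMP-activated kinase, at 1.27, Ppargc1b, a coactivator of SREBP-1, at 1.25, and the liver X receptor Nr1h3 at 0.92 (0.34 and 1.51 by probe). Prkaa1, the other catalytic subunit of the kinase, was at -1.17 in G37L and 0.93 in G37H, although these lines carry the same mutation. By its decimals the G37H value of Prkaa1 rests on fewer arrays than labelled. The median of the 25 regulators was 0.04 in DTrsp and 0.10 in A34, with -0.44 in G37L and -0.14 in G37H.

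**Figure D4:**
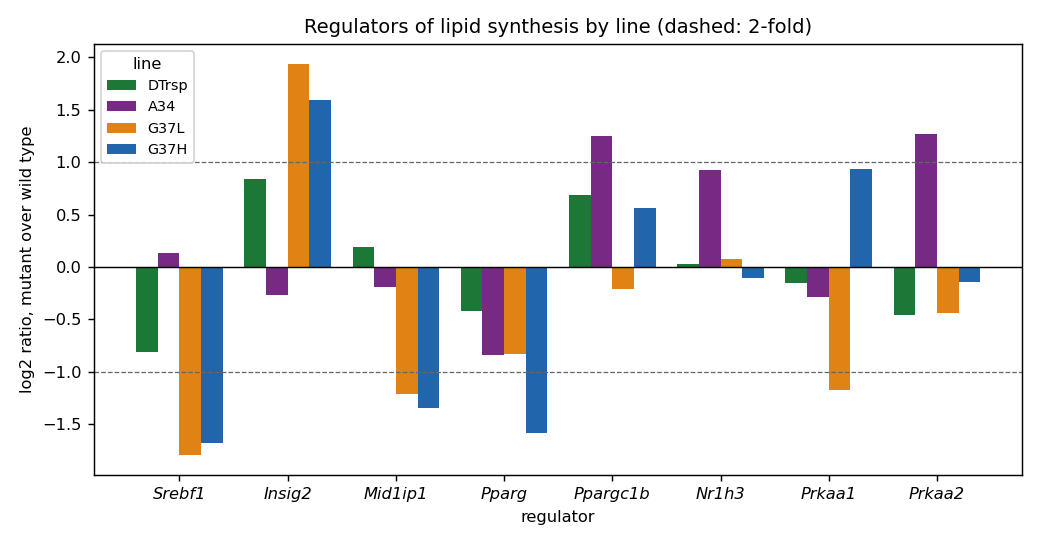
Log2 ratio of mutant over wild type for 8 regulators of lipid synthesis, with 1 bar per line in the order DTrsp, A34, G37L and G37H. Srebf1 and Mid1ip1 are below 0 and Insig2 above 0 in both G37 lines, while A34 has bars above 1 for Ppargc1b and Prkaa2.

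Of 15 measured enzymes that supply acetyl-CoA and NADPH, Acly and Me1 included, 1 lay below 0 in DTrsp, against 36.0% of all genes. At least 2-fold higher there, against 3.27% of all genes, were 4: Me1, the pentose phosphate enzymes Pgd at 1.52 and Tkt at 1.34, and the pyruvate carboxylase Pcx at 1.08. Their median was 0.65, or 0.07 relative to the hepatocyte markers. In A34 Pgd stood at -0.99, beside Me1 at -0.97, while Tkt, named after its A34 value was known, was at -0.04. In G37L the acetyl-CoA synthetase Acss2 was at -1.28 and the pyruvate kinase Pklr at -1.02 (Pklr probes at -1.86 and -0.18). All 15 lay below 0 in G37H, against 61.6% of all genes, though only Acly was at least 2-fold lower, against 3.10%. That unanimous count depends on the zero point. The highest of the 15 was at -0.0002, above the column median of -0.11, so it turned positive after centring on all genes.

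The 20 measured genes of fatty acid synthesis, elongation and desaturation had medians of 0.34 in DTrsp and -0.05 in A34, with 0.34 in G37L and 0.05 in G37H. In A34 only Elovl6 and Fasn, both members, were at least 2-fold lower and 0 were higher, against 0.452% and 1.40% of all genes. In DTrsp 3 genes of very-long-chain elongation were at least 2-fold higher, against 3.27% of all genes. They were the dehydratases Hacd3 at 1.36 and Hacd2 at 1.04 and the ketoreductase Hsd17b12 at 1.26. Elovl6, which works with these enzymes, was at 0.29 there.

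Glycerolipid genes gave medians between 0.01 and 0.26 in the 4 lines, over 24 measured. Gpam was the only one at least 2-fold higher in A34, against 1.40% of all genes. It was also the only one at least 2-fold lower in G37L, against 3.96%. The lipid droplet gene Cidec was at -1.05 in A34 and 0.86 in G37L. In DTrsp the glycerol-3-phosphate dehydrogenase Gpd1 was highest at 1.55. The 6 measured PPARG targets had medians of 0.42 in DTrsp and -0.34 in A34, with 0.39 in G37L and -0.14 in G37H, and relative to the hepatocyte markers all 4 medians lay below 0. They were not alike. The fatty acid transporter Cd36 had log2 ratios of 2.41 in DTrsp and -1.23 in A34, with -1.63 in G37L and -1.92 in G37H. Cd36 was at least 2-fold lower in the 3 transgenic lines. In G37L 4 of the 6 lay above 0, Fabp4 at 0.96 and Cidec at 0.86 among them, while 60.6% of all genes lay below 0 there. In G37H the thioesterase Acot1 was at 1.27.

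Cholesterol synthesis is driven mainly by the related factor SREBP-2. The 18 measured genes had medians of 0.15 in DTrsp and -0.64 in A34, with 0.28 in G37L and -0.18 in G37H. In A34 5 were at least 2-fold lower and 0 higher, against 0.452% and 1.40% of all genes. In G37L 0 were lower and 3 higher, against 3.96% and 2.51%. In G37H 1 was lower (Fdps at -1.01) and 0 higher, against 3.10% and 2.78%. The synthase Hmgcs1 was at 0.93 in DTrsp and -1.56 in A34, with 0.36 in G37L and -0.61 in G37H. Sqle, the squalene epoxidase, was at -1.39 in A34 and 1.5 in G37L, and its 2 probes differed in sign in DTrsp and G37H. Relative to the hepatocyte markers the list median was below 0 in every line, at -0.42 in DTrsp and -1.03 in A34, with -0.25 in G37L and -0.72 in G37H. Fatty acid oxidation genes, the opposing pathway, had medians of 0.58 in DTrsp and 0.17 in A34, with -0.13 in G37L and -0.03 in G37H over 24 genes.

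**Figure D5:**
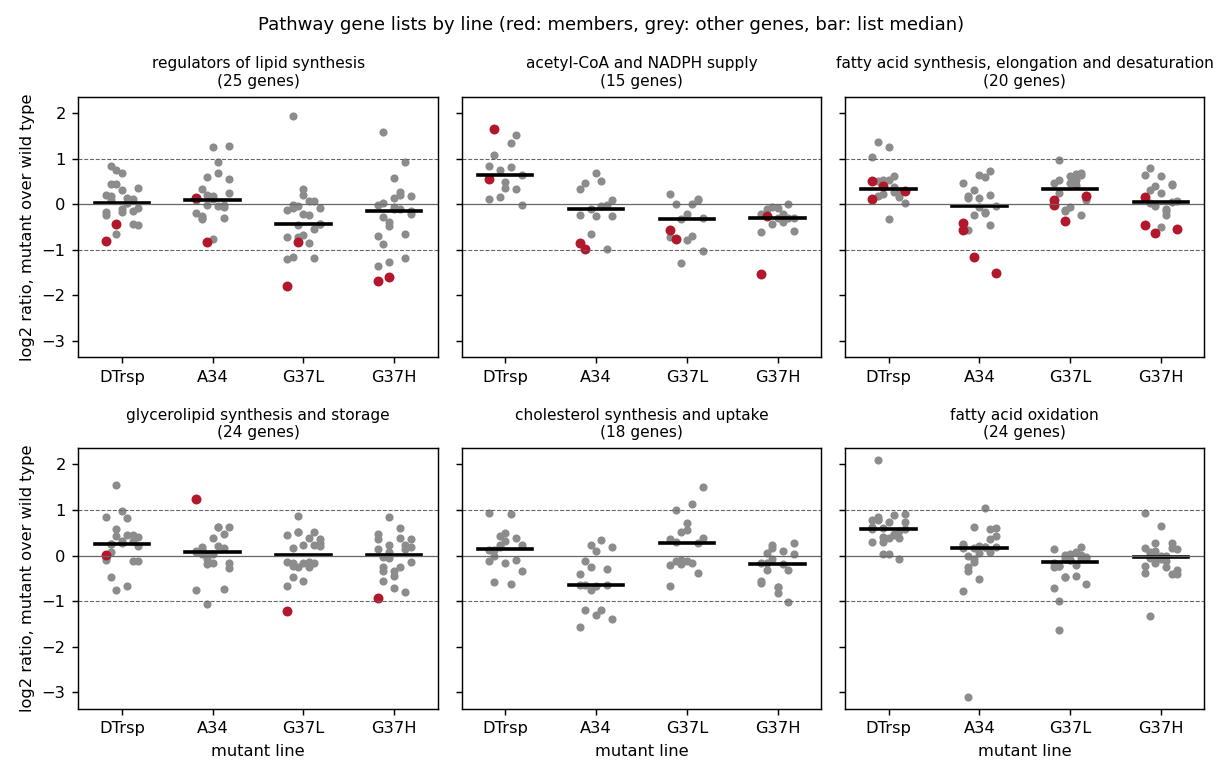
Log2 ratios of mutant over wild type in 6 gene lists, by line. Red points are the 9 genes, grey points the other measured genes of each list, and black bars list medians. In A34 Elovl6 and Fasn are the lowest points of the fatty acid list, and the cholesterol list has its lowest median there (-0.64).

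Genes with the most similar values over the 4 lines were found by Euclidean distance among all 9285 genes. Nearest to Srebf1 was Txnrd2, a mitochondrial thioredoxin reductase and itself a selenoprotein, at a distance of 0.45, with -0.85 in DTrsp and -0.07 in A34, with -1.42 in G37L and -1.53 in G37H. Mpdz (0.50) and Igfbp5 (0.59) followed, and the median gene was 2.57 away. Nearest to Fasn were Rprd1a (0.38), Echdc3 (0.42) and Galr3 (0.47), against 1.55 for the median gene. Nearest to Pparg were the phospholipase Pla2g5 (0.42), Nipsnap3a (0.51) and Snx20 (0.54), against 2.07. The closest member to Fasn was Elovl6 (0.67), and the closest to Srebf1 was Pparg at 1.43. These rest on 4 values per gene, all against wild-type animals that may be shared.

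Whole liver holds other cells. Kupffer cell and macrophage markers had medians of -0.11 in DTrsp and 0.60 in A34, with 0.74 in G37L and 0.58 in G37H, over 15 of 17 listed genes measured. At least 2-fold higher were 0 in DTrsp and 2 in A34, with 6 in G37L and 4 in G37H. The share of all genes that high was 3.27% in DTrsp and 1.40% in A34, with 2.51% in G37L and 2.78% in G37H. Marker values ranged between -1.55 and 1.60 over the 3 transgenic lines. Of 10 adipocyte markers, which bear on Pparg, Fasn and Scd1, 3 had a named probe. Fabp4 was at 0.41, 0.04, 0.96 and -0.36 in DTrsp, A34, G37L and G37H, Lipe at 0.45, -0.74, -0.17 and -0.81, and Cidec at 0.43, -1.05, 0.86 and 0.08. The part of these cells in the values of the 9 genes was not tested.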

How the data were processed

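Livers of 4 mutant lines were compared with wild type on 2-colour oligonucleotide arrays. Per the labels' protocols, Trizol-extracted total RNA (15 µg) was copied from oligo-dT primers and coupled to Cy3 or Cy5, with 1 biological replicate per array. The deposited values are log2 ratios made by the authors and averaged over 4 animals (3 in G37H), per the labels. The base of the logarithm, background correction, normalization and any dye swaps are not stated in the labels or files, and log2 is assumed from the range of the values. Precision is limited by the number of arrays.

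Of 15478 probes, 13047 had 1 gene in the platform annotation. The mouse gene table of GRCm38.p6 gave names for 12984 by gene identifier, and 63 kept the annotation's symbol. The 110 probes with several genes and the 2321 not listed were left unnamed. Probes of a gene were averaged (pandas 2.3.3, Python 3.11.15). No coordinates of probes are given. Decimals within 0.01 of a 4-decimal step divided by 2, 3 or 4 were read as the number of arrays averaged. By them at least 14.0% of probes in DTrsp and 13.5% in A34, with 5.77% in G37L and 14.4% in G37H rest on fewer arrays than labelled.

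No test was run, and with 1 averaged value per line none is possible. The counting and distance steps were tested on simulated data. Named genes are the 9 members, the 4 genes of each other list that lay farthest from 0 in the line described, and the 3 nearest to Srebf1, Fasn and Pparg. For some of these genes the values in other lines are given as well. The members and lists were chosen with earlier results of these data known. Other thresholds, centrings, probe summaries and a natural-log reading were tried. Promoters are from the RefSeq table, whose windows run from 250 bases before to 50 after each start. Only the bases before it were searched.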

Additional observations from a re-analysis of the deposited data

Results flagged for a closer look

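Gpam, the acyltransferase of the first step of triglyceride synthesis, was at least 2-fold higher in A34 (1.23) and at least 2-fold lower in G37L (-1.22), 2.45 apart on the log2 scale. Both lines carry 2 transgene copies. Each value is a single average, the difference was not tested, and Gpam has 1 probe. By its decimals the G37L value can be an average over either 2 or 4 arrays, and the A34 value is one over 3.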

How the results depend on the processing

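No paired analysis was possible because each line has 1 averaged value, and for the same reason no animal could be left out in turn. Of 76 recomputed counts and medians, 49 stayed within the limits used (1.5 times for a count, no shift for a median). Averaging probes by their median (12 of the 49), counting probes singly (8) and taking the median over single probes (4) could change nothing. Each member has 1 probe, so these results were fixed in advance and say nothing about stability. At 1.5-fold the members lower numbered 1 in DTrsp and 5 in A34, with 4 in G37L and 5 in G37H. At 3-fold 0 were lower and 0 higher in A34, and 1 was lower in G37L. Read as natural logarithms, 1 was lower in DTrsp, 5 in A34 and 4 in G37L. The shares of all genes under these thresholds and this reading are not given here, so these counts describe the members only. Centred on the median of all genes, the member medians were 0.14 in DTrsp and -0.91 in A34, with -0.45 in G37L and -0.51 in G37H. Without Me1 they were 0.20, -0.70, -0.46 and -0.78 in the same order.

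Centring on the hepatocyte markers was added after seeing the data. It gave medians of -0.28 in DTrsp, turned from 0.29, and of -1.22 in A34, -1.09 in G37L and -1.16 in G37H. Members at least 2-fold lower then numbered 2 in DTrsp and 5 in A34, with 5 in G37L and 7 in G37H, and 0 were higher in A34. Of all 9285 genes, 1089 were that low in DTrsp and 211 in A34, with 1992 in G37L and 1844 in G37H. This centring thus lowered the whole array, not the members alone. The hepatocyte medians lay above 0 in every line, so this centring could only lower a median. That the 3 low medians stayed below 0 under it was therefore fixed in advance. The same holds for centring A34 on all genes, whose median there was 0.07. In G37L and G37H the medians stayed below 0 although centring on all genes raised them. The positive median in DTrsp was kept after centring on all genes and lost relative to the hepatocyte markers.

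In DTrsp, 304 genes of the whole array were at least 2-fold higher and 150 lower as deposited (67.0% of called genes higher), 172 and 259 (39.9%) centred on the median of all genes, and 62 and 1089 (5.39%) on hepatocyte markers. In A34 they were 130 and 42 (75.6%), 106 and 57 (65.0%), and 31 and 211 (12.8%). In G37L they were 233 and 368 (38.8%), 301 and 253 (54.3%), and 65 and 1992 (3.16%). In G37H they were 258 and 288 (47.3%), 342 and 182 (65.3%), and 58 and 1844 (3.05%). The cause of these shifts was not tested. Signal over background was not used here.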

Other observations

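Blood and endothelial genes also differed between the lines. Red cell globins Hbb-b1 and Hba-a1 were at 1.37 and 1.13 in DTrsp, against 0.16 and 0.49 in A34. The endothelial list of 8 genes had medians of 0.57 in DTrsp and 0.26 in A34, with -0.0007 in G37L and 0.27 in G37H. In G37L 4 of the 8 lay below 0, against 60.6% of all genes. The 8 measured stellate cell markers had medians of -0.46, 0.09, -0.04 and -0.12 in the same order of lines. Lrat, which stores retinol in stellate cells, was at -1.51 in G37L.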
